A study of Mus musculus with 2 samples.

Results

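The genes described here are the mouse Nfi and Ebf transcription factors, 7 of the 43346 genes in the deposited tables. They are Nfia, Nfib, Nfic and Nfix of the nuclear factor I family and Ebf1, Ebf2 and Ebf3 of the early B cell factor family. Members were taken by name, through their Ensembl gene identifiers and the GENCODE mouse annotation, and all 7 had an entry in both gene tables. Their 49 annotated transcripts were read from the matching transcript tables.

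Total RNA was sequenced from limb of mouse embryos at embryonic day 11.5, as 2 libraries of 1 group. The labels call them biological replicates 1 and 2, from pools of 109 and 88 embryos. Both pools were of the strain named B6NCrl in the labels, held male and female embryos described as healthy, and carried no treatment or engineered allele that the labels name. The input was 10 ng of RNA per library, in a size range above 200 nt, with added spike-in RNAs. Pooling averages over embryos and hides the differences between them, so the spread shown here is that between these 2 pools and their libraries. With 1 group there was no contrast between conditions, and the levels below are descriptions without a test.

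Nuclear factor I proteins bind DNA as dimers, at sites built from the arm TTGGC and its inverted copy, through a conserved domain near their amino end. The rest of the protein varies among the family and is spliced in many forms. Early B cell factors bind DNA through a domain with an unusual zinc knuckle and form dimers through a helix-loop-helix motif. Nfi factors are known for roles in glia, lung, tooth root and the change from embryonic to fetal muscle, and Ebf factors for roles in B cells, neurons, fat and the bone and tendon lineages that arise from mesenchyme.

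The likeness within each family was compared on the coding sequence of the most abundant complete coding transcript of each gene, from GENCODE M21 on GRCm38. In the Nfi family the pairwise identity over aligned bases ran from 69.4% for Nfib against Nfic to 75.3% for Nfic against Nfix. In the Ebf family it ran from 73.8% for Ebf1 against Ebf2 to 79.6% for Ebf1 against Ebf3. The 90-nt windows with the most identical bases are shown because they are the stretches in which the members of a family are most alike. Capitals mark bases that are the same in all members of the family, 68 of 90 in the Nfi genes and 73 of 90 in the Ebf genes. Each window lies within a single coding exon.
Nfia, chr4:97783134-97783223, + strand: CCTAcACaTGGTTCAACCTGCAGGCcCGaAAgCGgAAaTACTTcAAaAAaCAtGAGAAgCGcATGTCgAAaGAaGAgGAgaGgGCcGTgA
Nfib, chr4:82498628-82498717, - strand: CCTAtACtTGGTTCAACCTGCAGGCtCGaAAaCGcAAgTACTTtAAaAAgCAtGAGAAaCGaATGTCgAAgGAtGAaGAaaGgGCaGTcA
Nfic, chr10:81420657-81420746, - strand: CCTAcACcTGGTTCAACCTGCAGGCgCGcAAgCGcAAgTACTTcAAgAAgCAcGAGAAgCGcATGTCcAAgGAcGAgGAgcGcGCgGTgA
Nfix, chr8:84772174-84772263, - strand: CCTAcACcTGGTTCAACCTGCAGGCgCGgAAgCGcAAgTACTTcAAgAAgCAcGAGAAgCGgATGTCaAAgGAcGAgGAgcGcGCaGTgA
Ebf1, chr11:44620439-44620528, + strand: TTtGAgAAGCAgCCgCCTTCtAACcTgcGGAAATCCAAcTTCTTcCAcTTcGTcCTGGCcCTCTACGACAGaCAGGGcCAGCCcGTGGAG
Ebf2, chr14:67237474-67237563, + strand: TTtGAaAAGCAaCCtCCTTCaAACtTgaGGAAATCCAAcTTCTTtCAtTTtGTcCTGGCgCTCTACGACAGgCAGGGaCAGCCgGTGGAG
Ebf3, chr7:137313560-137313649, - strand: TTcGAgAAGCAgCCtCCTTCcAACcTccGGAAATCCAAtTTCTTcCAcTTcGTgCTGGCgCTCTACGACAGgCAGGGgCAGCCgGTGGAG

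The share of identical bases varied along the coding sequence. When the alignment of the 4 Nfi coding sequences was split into 3 equal lengths, the share of columns identical in all members was 66.9%, 25.8% and 12.2% from the 5′ to the 3′ end. For the 3 Ebf genes the shares were 68.4%, 68.6% and 49.6%. A column with a gap in any member counted as not identical, and gaps depend on the transcript chosen for each gene. Of the columns, 1074 of 1593 in the Nfi alignment and 1641 of 1785 in the Ebf alignment had no gap. Within these columns 51.9% and 67.6% were identical in all members. The families were thus not compared on equal terms. The longest run without a difference was 32 nt in the Nfi family, between Nfic and Nfix, and 24 nt in the Ebf family, between Ebf1 and Ebf3. The deposited posterior standard deviation of the count, which reflects how reads shared between genes could be assigned, was 0 in both libraries for 4 of the 7 genes. For Ebf1 it was 20.48 and 16.26 counts in replicates 1 and 2, and for Nfix 1.62 and 1.40.

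All 7 genes were detected, that is listed at 1 TPM or more in both libraries, as were 31.3% of all genes and 56.3% of protein-coding genes. TPM is a level per transcript length, scaled to the same total in each library, so it can be set side by side between genes. In bulk tissue a low level from fewer cells and one from less RNA per cell cannot be told apart. The libraries held 42.95 M and 35.07 M counts in replicates 1 and 2, of which spike-ins were 5.37% and 7.92% and the 7 genes 0.0411% and 0.0399% of the counts in genes.

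Among the Nfi genes, Nfib (ENSMUSG00000008575, chr4:82290173-82705750, - strand), best known for lung and brain development, was listed at 25.08 TPM in replicate 1 and 26.65 TPM in replicate 2. Its mean of 25.9 ± 1.11 TPM (SD, n = 2) rested on 3623 and 2928 counts. Nfia (ENSMUSG00000028565, chr4:97772734-98118874, + strand), which acts at the start of gliogenesis, stood at 21.59 and 23.29 TPM, a mean of 22.4 ± 1.202 TPM (SD, n = 2). Both lay slightly above the median of detected protein-coding genes, 19.88 TPM, at percentiles 57.4 and 53.5 of those genes.

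Nfic (ENSMUSG00000055053, chr10:81396186-81455635, - strand), required for tooth roots, was at 12.90 and 13.67 TPM, with a mean of 13.3 ± 0.544 TPM (SD, n = 2) and a percentile of 39.5. The least abundant member was Nfix (ENSMUSG00000001911, chr8:84699876-84800344, - strand), a regulator of fetal muscle genes. Nfix had 3.59 and 3.39 TPM, 3.49 ± 0.141 TPM (SD, n = 2), at percentile 13.3. It also had the fewest counts, 265.63 and 170.81, so its transcript shares are the least precise of the 7.

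Ebf1 (ENSMUSG00000057098, chr11:44617317-45008091, + strand), the factor that commits cells to the B lineage and that is also made in mesenchyme, was the most abundant of the 7. It was listed at 47.80 TPM in replicate 1 and 40.92 TPM in replicate 2, a mean of 44.4 ± 4.86 TPM (SD, n = 2) at percentile 71.8. Ebf2 (ENSMUSG00000022053, chr14:67233292-67430918, + strand), known for brown fat identity, had 12 and 10.72 TPM, or 11.4 ± 0.905 TPM (SD, n = 2), at percentile 35.9. Ebf3 (ENSMUSG00000010476, chr7:137193673-137314445, - strand), which acts in neurons and in bone marrow stroma, was at 5.23 and 4.90 TPM, 5.07 ± 0.233 TPM (SD, n = 2), percentile 19.3.

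The sum over the 4 Nfi genes was 63.16 TPM in replicate 1 and 67.00 TPM in replicate 2, and that over the 3 Ebf genes was 65.03 and 56.54 TPM. The Nfi genes thus held 49.3% and 54.2% of the TPM of all 7 genes, so that neither family was the higher in both pools. Within the Nfi family Nfib held 39.7% of the summed TPM, Nfia 34.5%, Nfic 20.4% and Nfix 5.37%, as means of the 2 libraries. In the Ebf family Ebf1 alone held 72.9%, with Ebf2 at 18.7% and Ebf3 at 8.35%.

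The order of the levels, Ebf1, Nfib, Nfia, Nfic, Ebf2, Ebf3, Nfix, was the same in both libraries. Neighbours in this order were called apart when their gap was larger than the difference between pools that 95% of genes of like level stay under. By this measure 3 of 6 neighbouring pairs were apart. Ebf1 stood 1.71-fold above Nfib, against a spread of 1.26-fold. Nfia stood 1.68-fold above Nfic, where the spread was 1.34-fold, and Ebf2 2.22-fold above Ebf3, where it was 1.57-fold. Nfib and Nfia (1.15-fold), Nfic and Ebf2 (1.17-fold) and Ebf3 and Nfix (1.44-fold) differed by less than the spread at their level. Levels counted from protein-coding transcripts alone gave another order, in which Nfib moved from the second to the fifth place.

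**Figure D1:**
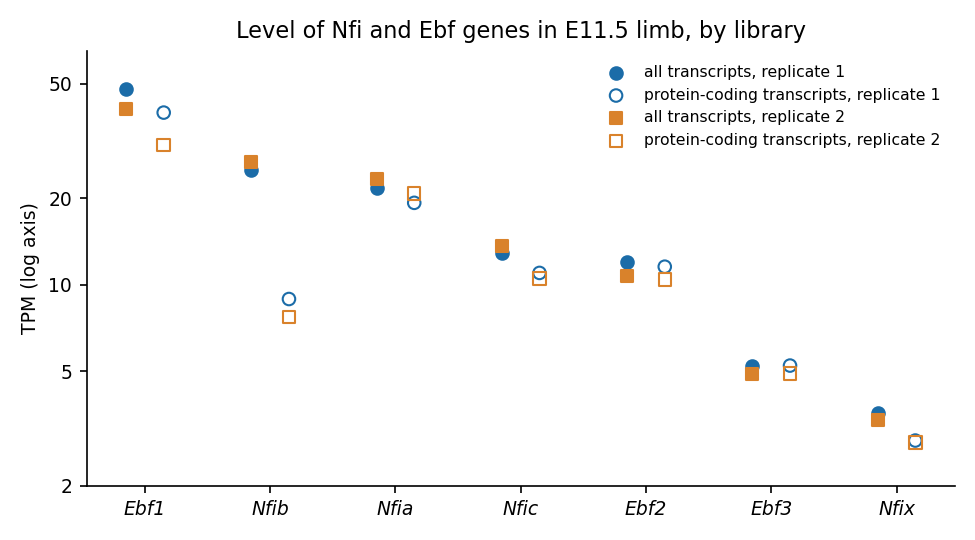
Level of each gene in TPM on a log axis, with circles for replicate 1 and squares for replicate 2; filled symbols count all transcripts of the gene and open symbols its protein-coding transcripts. Ebf1 is highest on both counts, while Nfib drops from 25.9 to 8.31 TPM in the mean when only coding transcripts are counted.

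The largest departure from the gene totals was in Nfib. The transcript with most of the gene's TPM was Nfib-208, annotated as a retained intron, at 10.74 and 11.87 TPM in replicates 1 and 2. The leading coding transcript, Nfib-202, was at 7.60 and 6.68 TPM. A further retained-intron transcript, Nfib-207, was at 3.95 and 4.84 TPM. In both libraries the retained-intron form Nfib-208 was therefore above the leading coding form.

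Retained-intron transcripts together held 63.6% and 69.0% of the TPM of Nfib. Longer transcripts give more counts at the same TPM. Of the counts, retained-intron transcripts held 41.9% and 49.4%. By counts Nfib-202, of 8429 nt, led the gene with 1782.32 and 1300.87 against 1130.52 and 1037.65 for Nfib-208. For comparison, 3636 genes were taken that have an annotated retained-intron transcript, a coding transcript and at least 10 TPM in both libraries. Their median share of TPM in retained-intron transcripts was 6.74%, and 98.3% of them had a lower share than the 66.3% of Nfib. Genes without an annotated retained-intron transcript were left out. Nfib-208 has 2 exons and 3835 nt. Its last exon runs on from the coding exon with the conserved window printed above for another 2254 nt of intron, chr4:82495984-82498237, and 59.0% of its bases lie outside the coding exons of the gene. Reads of unspliced RNA and of a stable transcript that keeps this intron cannot be told apart in these tables. Counted from coding transcripts alone, Nfib was at 8.91 and 7.70 TPM, or 8.31 ± 0.856 TPM (SD, n = 2).

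The other genes kept more of their TPM in coding transcripts. In Ebf3 it was all of the TPM in both libraries, and in Ebf2 96.2% and 97.1%. In Nfia it was 89.2% in both, though this included Nfia-208, a short model of 851 nt with an incomplete coding sequence, at 4.87 and 6.17 TPM. Nfia-208 held 22.58% and 26.51% of the TPM of the gene and 2.64% and 3.20% of its counts. Ebf1 had 82.9% and 74.7% of its TPM in coding transcripts, and Nfic 85.1% and 76.7%. In these 2 genes the remainder lay in transcripts annotated as processed, that is without a coding sequence, and it was larger in replicate 2.

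**Figure D2:**
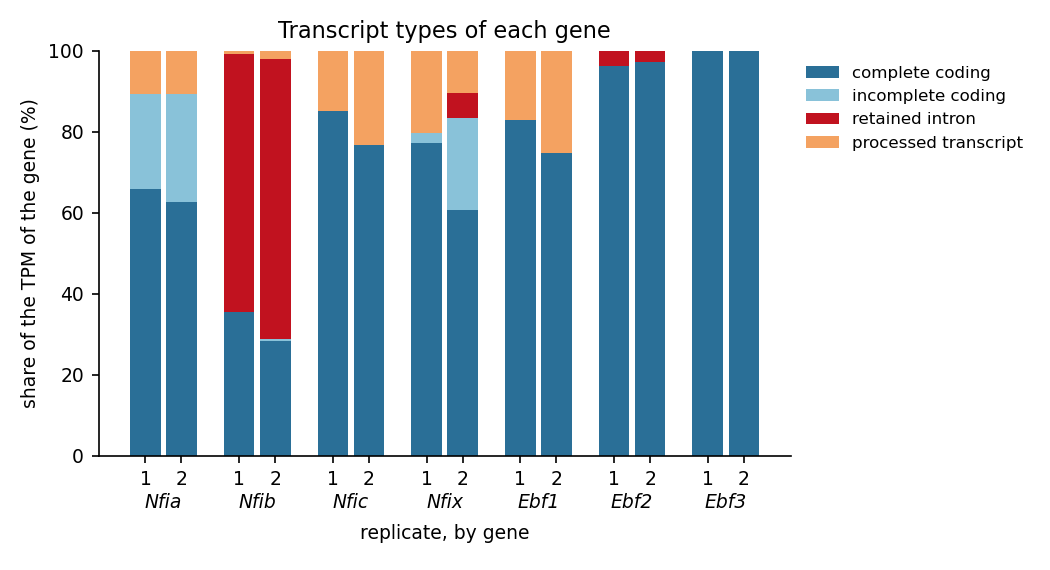
Share of the TPM of each gene, in percent, held by transcripts annotated as complete coding, incomplete coding, retained intron or processed, with 1 bar for each replicate. Nfib is the gene whose bars are mostly retained intron, 63.6% and 69.0%, while Ebf3 is wholly coding.

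Counted from coding transcripts, Ebf1 was at 35.1 ± 6.41 TPM and Nfia at 20.0 ± 1.08 TPM (SD, n = 2 in each). Ebf2 (11.0 ± 0.799 TPM), Nfic (10.7 ± 0.354 TPM) and Nfib followed, and neighbours among these 3 differed by less than the spread. Ebf3 (5.07 ± 0.226 TPM) and Nfix (2.85 ± 0.0283 TPM) came last. Of the 6 neighbouring pairs 4 were apart, among them Ebf3 and Nfix, which stood together when all transcripts were counted. The sums were then 42.00 and 41.78 TPM for the Nfi genes and 56.39 and 45.87 TPM for the Ebf genes, and the Ebf sum was the higher in both pools. This count was chosen after the values were seen.

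Of the 49 transcripts, 26 held at least 5% of the TPM of their gene in a library, and 7 had 0 counts in both. The leading transcript was the same in both libraries for 5 of the 7 genes by share of TPM and for all 7 by share of counts. The authors' deposited bounds around each transcript's TPM, of a level that the sources used here do not give, did not overlap between the pools for 6 of the 26 member transcripts that reached 1 TPM in either library (not the same set as the 26 above), while for all transcripts so compared the share was 9.37%. The 6 were Nfia-204, Nfic-203, Nfix-204, Ebf1-201, Ebf1-202 and Ebf1-207. Only Ebf1-207 of these was higher in replicate 2. The spike-ins, which are part of the TPM total, took 11.8% and 17.2% of TPM in replicates 1 and 2. When values and bounds were rescaled over genes only, an alternative added after seeing the data, 7 transcripts were apart, against 8.33% of all transcripts. Of these, 5 were among the 6 above. Nfic-203 no longer stood apart, while Nfib-208 and Nfib-209, both retained introns and higher in replicate 2, did.

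In Nfia, Nfia-202 led with 7.82 and 10.87 TPM in replicates 1 and 2. The widest gap between pools was in Nfia-204, at 3.89 TPM and 966.03 counts in replicate 1 against 0.00 TPM and 0.49 counts in replicate 2, with bounds of 2.41 to 5.14 and 8.34e-05 to 1.64 TPM. Nfia-205 went the other way, from 1.02 to 2.99 TPM. The summed TPM of the 5 transcripts that start between positions 97777608 and 97777834 of chromosome 4, which include Nfia-202, Nfia-204 and Nfia-205, was close in the pools, 14.22 and 14.60 TPM.

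These Nfia forms share most of their sequence. Nfia-204 lacks 4 coding segments of Nfia-202, of 66, 75, 118 and 128 nt. The first 2 are shown, in capitals between 12 flanking bases of Nfia-202, because they separate the form with the widest gap between pools from the leading one.
Nfia-202 segment, chr4:97956374-97956439: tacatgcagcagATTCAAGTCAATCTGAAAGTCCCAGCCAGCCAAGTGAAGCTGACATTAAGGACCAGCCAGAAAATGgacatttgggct
Nfia-202 segment, chr4:98000392-98000466: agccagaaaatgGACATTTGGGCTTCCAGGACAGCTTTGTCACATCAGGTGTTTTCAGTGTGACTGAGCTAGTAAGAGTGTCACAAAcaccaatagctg
Nfia-205 lacks a 92-nt segment of Nfia-202 near the 3′ end of the coding sequence, chr4:98081725-98081816, and Nfia-203, at 1.24 and 0.74 TPM, lacks a 129-nt segment, chr4:98041551-98041679. The processed transcript Nfia-206 was at 2.33 and 2.51 TPM.

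In Nfic the forms Nfic-201 and Nfic-203 were close to each other, at 4.18 and 4.34 TPM in replicate 1 and at 5.67 and 3.33 TPM in replicate 2. The order by TPM thus differed between pools. For Nfic-203 the deposited bounds stood apart, 3.82 to 4.71 TPM against 2.82 to 3.71 TPM, but rescaled over genes only they overlapped, 4.33 to 5.34 TPM against 3.41 to 4.47 TPM. Their coding sequences end differently, and the coding end of each is printed in capitals between 12 flanking bases because it is what separates the forms.
Nfic-201 end, chr10:81403381-81403428: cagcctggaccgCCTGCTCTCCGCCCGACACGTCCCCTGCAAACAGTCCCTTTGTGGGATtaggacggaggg
Nfic-203 end, chr10:81401057-81401071: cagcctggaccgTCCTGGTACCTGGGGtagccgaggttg
Another coding form, Nfic-204, begins at another first exon and was at 2.07 and 1.48 TPM. The short processed model Nfic-206, of 476 nt, was at 1.92 and 3.19 TPM on 20.34 and 28.15 counts.

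Nfix had several forms at low levels. Nfix-204 was at 1.34 and 0.81 TPM and Nfix-201 at 1.24 and 1.01 TPM in replicates 1 and 2, so that the leader by TPM changed. Nfix-205 was at 0.09 and 0.77 TPM, Nfix-208 at 0.61 and 0.21 TPM, and Nfix-206 was listed at 0 in replicate 1 and at 0.21 TPM in replicate 2. Nfix-208, a processed model of 234 nt, rested on 2.32 and 0.67 counts. By counts Nfix-204 led in both pools, with 202.47 and 101.47.

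The Nfix forms also differ in where they start. Transcripts that begin between positions 84773396 and 84774369 of chromosome 8 held 78.9% and 63.7% of the counts of the gene, and those that begin upstream, between 84800024 and 84800344, held 19.8% and 34.6%. Counts rise with transcript length, and Nfix-204 has 5476 nt against 1403 nt for Nfix-201. By TPM, which allows for length, the downstream shares were 40.49% and 28.03% against upstream shares of 39.23% and 55.37%. The upstream start was thus the smaller by counts in both pools, and by TPM it was the larger in replicate 2 and differed little in replicate 1. The upstream form codes for a different first segment, shown in capitals with 12 bases on each side. The downstream form has only its start codon in that place.
Nfix-201 start, chr8:84799998-84800024: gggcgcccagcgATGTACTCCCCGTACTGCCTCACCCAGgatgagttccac
Nfix-204 start, chr8:84773354-84773356: tgcttcagatcaATGgatgagttccac
Nfix-204 also holds coding segments of 123 nt, chr8:84723728-84723850, and of 148 nt, chr8:84716141-84716288, that Nfix-201 lacks.

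Ebf1 was carried by a pair of coding transcripts, Ebf1-202 at 22.67 and 17.18 TPM and Ebf1-201 at 15.82 and 11.39 TPM. Both were higher in replicate 1, with bounds that did not overlap between pools. The processed transcript Ebf1-207 was at 5.52 TPM in replicate 1 and 7.65 TPM in replicate 2, and its bounds of 4.96 to 5.88 TPM and 6.89 to 8.08 TPM were also apart. In replicate 2, in which Ebf1 was lower as a gene, its 2 leading coding forms were thus lower and this form was higher. A minor coding form, Ebf1-203, was at 1.13 and 1.98 TPM. Ebf1-207 has 3968 nt, and a run of 3351 nt of it, chr11:44643470-44646820, lies outside the coding exons. Ebf1-204, a processed model of 673 nt, was at 2.65 and 2.72 TPM.

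The coding sequence of Ebf1-202 holds 3 nt that Ebf1-201 lacks, printed in capitals with 12 bases on each side. They begin at base 779 of the coding sequence, inside a codon, so the capitals are not a codon in frame.
Ebf1-202, chr11:44907904-44907906: atctggaacatgCAGctactccctgta
Ebf1-201 is 5981 nt long and Ebf1-202 3422 nt, and by counts Ebf1-201 led, with 2621.15 and 1566.92 against 2121.31 and 1335.34.

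Ebf2 was led by Ebf2-203, at 7.91 and 7.42 TPM, followed by Ebf2-202 at 3.36 and 2.88 TPM. Both have a coding sequence of 1725 nt, and they start at different sites, Ebf2-202 at position 67234644 of chromosome 14 and Ebf2-203 upstream of it. The upstream start held 72.0% and 73.1% of the TPM of the gene, so the balance of starts was close in the pools.

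Ebf3 had Ebf3-201 at 4.61 and 3.31 TPM and Ebf3-202 at 0.62 and 1.60 TPM in replicates 1 and 2. The share of Ebf3-202 was 11.77% and 32.56%, and its bounds overlapped, 0.138 to 1.28 TPM and 0.661 to 2.57 TPM. Ebf3-202 holds a coding segment of 108 nt that Ebf3-201 lacks, which is shown in capitals because it separates the 2 forms that were above 0. The lengths of these 2 transcripts in the tables were not those of GENCODE M21.
Ebf3-202 segment, chr7:137198582-137198689: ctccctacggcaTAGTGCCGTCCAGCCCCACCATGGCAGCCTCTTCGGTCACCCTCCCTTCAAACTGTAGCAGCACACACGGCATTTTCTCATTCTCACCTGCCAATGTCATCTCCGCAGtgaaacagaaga
All 4 Ebf3 transcripts in the tables start within positions 137314414 to 137314445, so no other start could be seen. GENCODE M21 lists 8 transcripts of this gene.

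**Figure D3:**
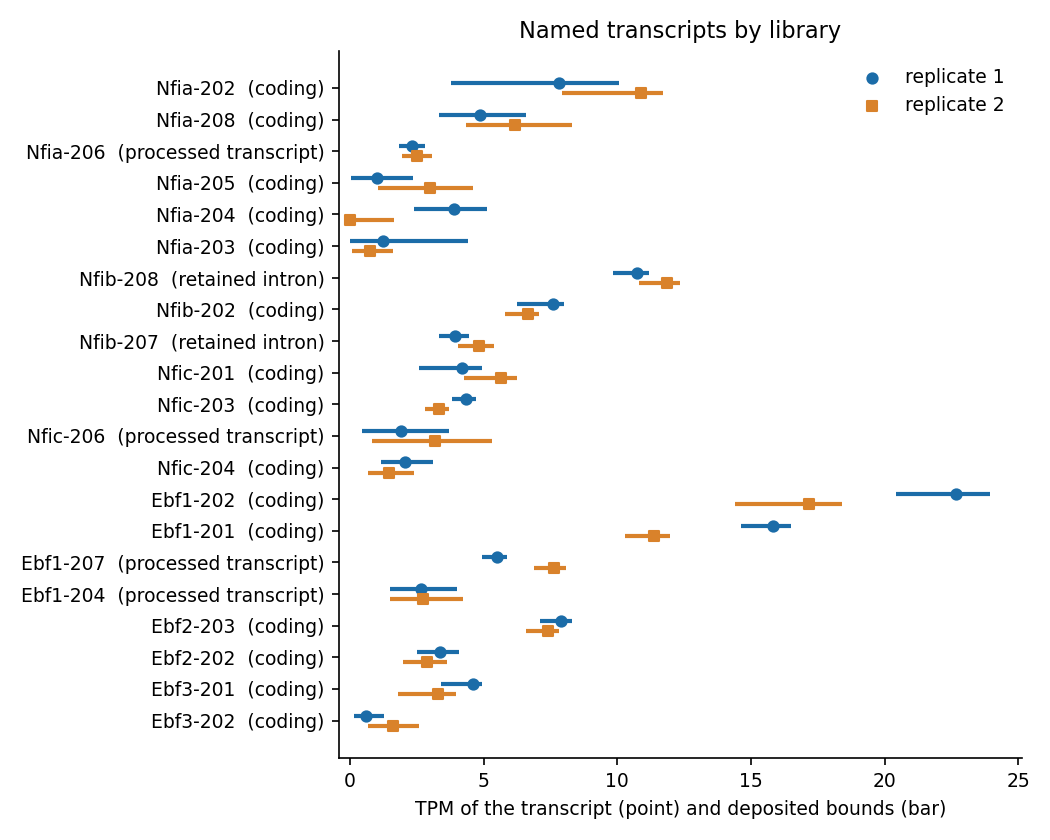
TPM of the named transcripts of all members but Nfix, as points for replicates 1 (circles) and 2 (squares), with bars for the authors' deposited bounds. The bars of Nfia-204, Nfic-203, Ebf1-202, Ebf1-201 and Ebf1-207 do not overlap between replicates on this scale, and those of Nfic-203 do once values are rescaled over genes only.

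Between the pools, the total count of each gene was split between the libraries and tested with the two-sided exact binomial test, with Benjamini-Hochberg adjustment over all 16787 genes of at least 20 counts, and ratios are given as log2 of replicate 2 over replicate 1 with 95% counting intervals. The test compares these 2 libraries only, and its intervals cover counting error, not differences between embryos. None of the 7 genes passed an adjusted p of 0.05 together with a change of 2-fold or more (log2 ratio of 1 or more in size), as did 3.09% of all genes tested. At an unadjusted p under 0.05 there were 3 of 7, beside 39.4% of all genes tested. With no minimum size 2 of 7 passed the adjusted p, as did 29.6% of all genes tested.

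Those 2 genes were Ebf1 and Nfia, and they differed in opposite directions. Ebf1 was lower in replicate 2, with a log2 ratio of -0.23 (-0.29 to -0.17, exact binomial adjusted p = 6.70e-12). Of 2123 genes of like level, 92.7% had a smaller ratio in size. Nfia was higher in replicate 2 by a log2 ratio of 0.12 (0.05 to 0.18, exact binomial adjusted p = 0.00388), and 61.9% of genes of like level had a smaller one. Nfix had a log2 ratio of -0.32 with an interval of -0.61 to -0.04, the widest of the 7, and an exact binomial adjusted p of 0.0721.

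Marker genes of several cell types also differed between the pools when no minimum size was set. Of 60 markers tested, 13 were higher and 18 lower in replicate 2 at an adjusted p under 0.05 (exact binomial test), beside the 29.6% of all genes. All 4 ectoderm markers past it were higher, among them the basal keratin gene Krt5 at 12.68 and 16.63 TPM (log2 ratio 0.44), while all 4 erythroid, all 3 cartilage and both macrophage markers past it were lower. Markers not past it did not all go the same way as these. In ectoderm Krt14 and Fgf8 had log2 ratios of -0.12 and -0.14. In cartilage Col2a1 and Matn1 had 0.01 and 0.29, and Acan -0.18. In macrophage Lyz2 had 0.18 and C1qb -0.03. In limb mesenchyme 3 were higher and 2 lower, among the latter Pitx1, the hindlimb factor, at 154.78 and 114.25 TPM (log2 ratio -0.38). Tbx4, of the same list, was at 28.81 and 27.29 TPM (log2 ratio -0.02) and did not pass. The forelimb factor Tbx5 was among the 3 higher, at 23.45 and 25.71 TPM (log2 ratio 0.18). In tendon and connective tissue 3 were higher, such as Osr1 at 47.43 and 59.86 TPM (log2 ratio 0.38), and 2 lower. Their part in the differences of Ebf1 and Nfia was not tested.

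For the other members the counting interval of the log2 ratio included 0. It was 0.01 (-0.06 to 0.08) for Nfib, -0.05 (-0.17 to 0.07) for Nfic, -0.09 (-0.21 to 0.02) for Ebf2 and -0.04 (-0.20 to 0.13) for Ebf3. The sign of each of the 7 ratios was the same with the size factors of DESeq2 and with total gene counts in place of the scaling by trimmed mean of M values (TMM). These scalings all use the same counts, without transcript length. In deposited TPM only Nfic went the other way, from 12.90 to 13.67 TPM. Rescaled over genes only, Nfix did too, from 4.07 to 4.09 TPM.

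**Figure D4:**
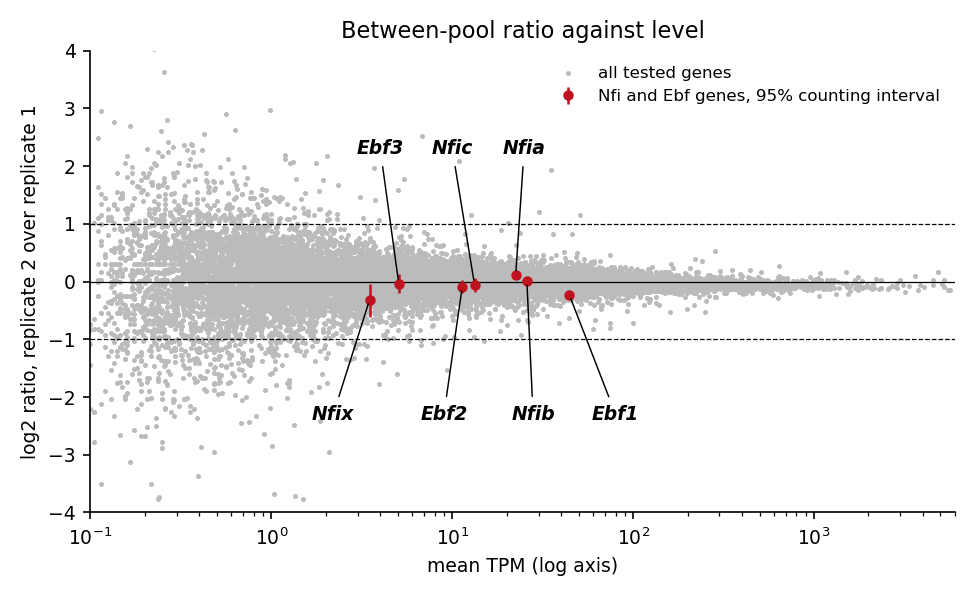
Log2 ratio of replicate 2 over replicate 1 against the mean TPM on a log axis, for all genes tested (grey) and for the Nfi and Ebf genes (red, with 95% counting intervals); dashed lines mark a ratio of 1 in size. The 7 genes lie between -0.32 and 0.12, inside the dashed lines.

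Some annotated genes share ground with the members. Of 18 genes whose span overlaps a member, 15 had an entry and 5 were detected, all on the other strand. Since the sources used here do not say whether counting used strand, reads of overlapping exons could have gone to either gene. At Nfix, G430095P16Rik was at 6.24 ± 0.233 TPM (SD, n = 2), above Nfix itself, and shares 137 nt of exon with it, while Lyl1, a factor of blood cells, was at 3.36 ± 0.622 TPM and shares 4 nt. At Nfic, Gm16104 was at 3.63 ± 0.523 TPM with 72 nt of shared exon. E130114P18Rik at Nfia (6.98 ± 1.45 TPM) and Gm12158 at Ebf1 (4.71 ± 1.08 TPM) shared 4 and 0 nt of exon. Their part in the levels of the members was not tested.

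RefSeq start sites (GRCm38.p6) lay within 50 nt of the start of a transcript in the tables for Ebf3 (all 4 transcripts), Nfic (Nfic-201 and Nfic-203), Nfix (Nfix-204) and Ebf1 (only the processed Ebf1-207). The other RefSeq windows, the one of Nfia among them, began elsewhere and were not used. In the 250 nt before these 4 starts, the NFI palindrome (TTGGC, any 5 bases, GCCAA) and the EBF palindrome (TCCC, any 2 bases, GGGA), searched on both strands, had no match. Across 32841 such windows of all genes the shares with a match were 0.0365% and 0.78%. The single NFI arm TTGGC, on either strand, was found in the window of Ebf1, and in 41.5% of all windows. The window of Ebf3 had 43 CpG pairs and 80% G and C, against medians of 6 and 52.4%.

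Partners of the Ebf proteins were present at levels near those of the higher members. Zfp521 and Zfp423, zinc finger proteins that bind Ebf factors and hold back their activity, were at 40.94 and 39.26 TPM and at 30.06 and 29.83 TPM in replicates 1 and 2. Ebf4, the fourth gene of the family, was at 1.42 and 1.58 TPM, below all 3 Ebf members. All 3 were detected, with a median of 29.9 TPM, and none passed the call between pools, beside 3.09% of all genes tested.

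Of 13 genes reported downstream of NFI factors in glia, neural progenitors and muscle, 9 were detected, with a median of 3.21 TPM against 3.02 TPM for all protein-coding genes. The highest were genes with wide roles in the embryo. Sox9, the factor that starts cartilage formation, was at 162 ± 11.1 TPM and Ezh2, which methylates histone H3, at 102 ± 9.85 TPM (SD, n = 2). Nfatc4 followed at 58.5 ± 3.90 TPM and Hes1, a Notch target, at 54.7 ± 2.01 TPM. Gfap, the astrocyte filament gene, was at 0.13 TPM in both libraries. Of the 12 that could be tested 1 passed the call between pools, beside 3.09% of all genes tested. It was the myosin gene Myh7, which was under 1 TPM in both libraries, at 0.74 TPM in replicate 1 and 0.29 TPM in replicate 2 (log2 ratio -1.29, exact binomial adjusted p = 2.28e-06).

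Genes reported downstream of EBF factors in other tissues were mostly low. Of 7 from B cells 2 were detected, Vpreb1 at 2.03 and 2.3 TPM and Cd79b at 1.68 TPM in both libraries, while Pax5, Blk and Igll1 were listed at 0 in both. Of 4 from olfactory neurons 2 were detected, the adenylate cyclase Adcy3 at 3.74 and 5.49 TPM and the G protein gene Gnal at 3.24 and 3.17 TPM. Omp and Cnga2, which mark mature olfactory neurons, had means of 0.13 and 0.04 TPM. Of 5 linked to EBF in fat and muscle 2 were detected, Prdm16 at 62.2 ± 7.54 TPM and the muscle calcium pump gene Atp2a1 at 14.9 ± 2.83 TPM (SD, n = 2). The fat genes Pparg, Cebpa and Ucp1 were under 1 TPM in both libraries.

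The labelled tissue was checked against marker genes. All 8 limb mesenchyme markers were detected, with summed levels of 639 and 592 TPM, as were all 6 of muscle, all 6 of ectoderm, 5 of 6 of cartilage and 5 of 6 of tendon and connective tissue. Markers of other cells that can hold Nfi or Ebf RNA were present too. Endothelial markers summed to 120 and 110 TPM (5 of 5 detected), macrophage markers to 46.6 and 41.6 TPM (5 of 5), erythroid markers to 9679 and 8551 TPM (5 of 5), and neuronal markers to 27.3 and 26.4 TPM (3 of 5). B lineage markers summed to 2.16 and 2.03 TPM, with only Cd79b detected and Pax5 at 0. Spinal cord progenitor markers summed to 0.16 and 0.27 TPM, and none of them, of brown fat or of glia was detected. Which cells held the RNA of the members was not tested. None of the 60 marker genes tested passed the call between pools with its minimum size of 2-fold, beside 3.09% of all genes tested.

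No pattern over conditions could be compared, so genes of like level were taken from 26 markers of limb mesenchyme, cartilage, muscle and tendon. Ebf1 was nearest to Hoxd13, the factor of the future digits, at 47.33 and 41.02 TPM. Nfib was nearest to Tbx5, the forelimb factor (23.45 and 25.71 TPM), and Nfia to Myog, a muscle differentiation factor (24.11 and 23.33 TPM). Nfic and Ebf2 lay nearest to Myf5 (16.04 and 14.20 TPM) and Sox6 (10.07 and 7.82 TPM), and Nfix and Ebf3 to Pax3 (4.41 and 3.71 TPM). These are likenesses of level in 2 libraries and say nothing of shared cells.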

How the data were processed

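For each library the authors deposited a table of genes and a table of transcripts. Per the file headers they were quantified against mm10 with GENCODE annotation M4, and the columns are those that RSEM writes. Aligner, tool versions and strandedness: not given in the sources used here. Counts, as deposited by the authors, are RSEM expected counts, estimates that need not be whole. The deposited TPM values are scaled over all entries including spike-ins. The deposited percent values give the part of a gene's TPM in each transcript, as RSEM writes it. The posterior mean TPM and the TPM bounds were deposited by the authors too.

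Library sizes and tests used genes only, without spike-ins and without entries named by a bare number (6.29e-05% and 4.76e-05% of counts). Symbols, coordinates and sequences were taken from GENCODE M21, whose GRCm38 build is that of mm10, and which matched 42462 of the gene identifiers and not the other 884. Promoter windows came from RefSeq, which gave none for Nfib and Ebf2. Rounded counts were scaled by TMM (edgeR 4.0.16, R 4.3.3), with effective library sizes of 40.4 M and 32.5 M counts. Ratios used a prior count of 0.5. The exact binomial test with Benjamini-Hochberg adjustment was checked on simulated counts that held counting error only. The check therefore does not cover further variation between pools. Levels were compared on log2(TPM + 0.1) in 20 abundance bins. With 1 group edgeR had no contrast to fit. Coding sequences were aligned with Biopython 1.88 and mafft 7.526; a comparison of proteins, which was planned, was replaced by one of coding sequences.

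Named are the 7 members, their transcripts of at least 5% of a gene's TPM in a library, up to 3 detected overlapping genes of each, up to 4 of the highest genes of each context list and genes of like level. Myh7, Gfap, Pax5, Blk, Igll1, Omp, Cnga2, Pparg, Cebpa and Ucp1, the markers named with values, and Ebf1-203 and Nfib-209, were chosen after their values were seen. The members and lists were chosen with earlier results of these data known. Alternatives were another scaling, other count minimums, other thresholds and pseudocounts, posterior mean TPM, TPM rescaled over genes, each library alone and coding transcripts only.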

Additional observations from a re-analysis of the deposited data

How the results depend on the processing

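All 7 genes stayed detected with posterior mean TPM, with TPM rescaled over genes only, at 0.5 TPM and in each library alone, and 5 did at a minimum of 5 TPM. Rescaling TPM over genes only, without spike-ins, gave 76.2 TPM for the Nfi sum and 71.0 TPM for the Ebf sum, and it raised all 7 levels. Counting protein-coding transcripts only, an alternative chosen after seeing the data, gave 41.9 TPM for the Nfi sum, 51.1 TPM for the Ebf sum and 45.2% for the Nfi share, against 65.1 TPM, 60.8 TPM and 51.8%. Leaving out a library in turn gave 63.16 to 67.00 TPM for the Nfi sum, 56.54 to 65.03 TPM for the Ebf sum and 49.3% to 54.2% for the Nfi share. The Nfix level was 4.11 TPM with posterior mean TPM. The 3 neighbouring pairs apart were 3 with a pseudocount of 1, with the 99th percentile and with posterior mean TPM, and 4 with coding transcripts only. Members past the between-pool call numbered 0 with other scalings and count minimums and 2 with no minimum size of the ratio. A count minimum leaves the log2 ratios, from -0.32 to 0.12, as they are, so it could not add a member. No paired analysis was possible because the labels give 1 group. Member transcripts with bounds apart numbered 6 as deposited and 7 rescaled over genes only. Nfix had the fewest counts, 265.63 and 170.81, and with 2 libraries each SD is imprecise.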
